A study of Mus musculus with 4 samples.

Results

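Clusters 14 and 16 are the smallest of the 8 chromatin clusters in which over 50% of the cells are untreated, in a study of PB3, a mouse mammary tumor cell line. They were taken by the authors' cluster numbers: 1011 untreated cells carried number 14 and 251 carried number 16, of 18944 untreated cells and of 43782 cells in the whole series. Accessibility was read by ATAC-seq, in which the Tn5 transposase cuts open DNA, in 4 libraries. The untreated libraries used here were a single-nucleus multiome library (ATAC with RNA; 9583 cells, 61629245 cut sites in peaks) and a single-cell ATAC library (scATAC; 9361 cells, 84615925 cut sites), both of untreated PB3 cells that carried lentiviral barcodes. The matching eribulin libraries, which served as background, had received 500 nM eribulin, a microtubule inhibitor, for 72 h with 48 h of recovery over 4 rounds (8114 multiome and 16724 scATAC cells). Each untreated library was a single sample made with its own protocol, the labels do not say whether both came from 1 culture, and no marker or gene values were used, so both clusters are called by their number.

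A lentiviral barcode is a short designed sequence that integrates into the genome and passes to all daughter cells, so that cells sharing a barcode are taken as one lineage. Setting barcodes beside chromatin clusters shows whether the cells of a lineage lie in 1 cluster or are spread over several. Tn5 cuts most readily in DNA free of nucleosomes, and a fragment that spans 1 nucleosome is longer than one from free DNA. The nucleosome signal is the number of the longer fragments over the number of the shorter ones in a cell. It describes how the accessible DNA is packed. Gene activity is a count of cut fragments over gene bodies and their upstream regions, summed here over all genes.

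Cluster 14 was led by 1 lineage and cluster 16 by 4, and the barcodes of the 2 most frequent lineages of each are shown because the lineage results rest on telling them apart. Each is 48 bases long and joins a short part of 14 bases to a long part of 30 bases, and a lineage is named by the numbers of both parts. Capitals mark the fixed linker of 4 bases between the parts. The barcodes, copied from the deposited list of designed barcodes, read 5′ to 3′:

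22-14328: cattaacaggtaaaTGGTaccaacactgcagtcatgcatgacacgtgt

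61-88872: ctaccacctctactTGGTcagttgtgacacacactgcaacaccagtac

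18-67263: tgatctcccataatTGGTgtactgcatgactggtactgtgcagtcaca

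71-29939: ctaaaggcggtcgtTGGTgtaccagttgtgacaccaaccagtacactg

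The first pair are the most frequent lineages of cluster 14, of which the second held 2.83% of its called cells, and the second pair are those of cluster 16. The barcode 22-14328 differed at 22 or more bases from each of the 76 other barcodes called in cluster 14. For the 4 leading barcodes of cluster 16 the closest other barcode of that cluster differed at 20 or more bases. Lineages 71-29939 and 71-60126, both leading in cluster 16, share their short part and differ at 28 of the 30 bases of the long part.

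Both clusters were found in both untreated libraries, cluster 14 at a somewhat higher share in scATAC and cluster 16 at shares whose intervals overlap. Cluster 14 held 462 cells, or 4.82% (4.40 to 5.27), of the untreated multiome library and 549 cells, or 5.86% (5.40 to 6.36), of the untreated scATAC library. Cluster 16 held 141 cells (1.47%, 1.24 to 1.73) and 110 cells (1.18%, 0.967 to 1.41). Intervals are exact 95% binomial (Clopper-Pearson) intervals and cover counting error only. Cells of 1 library are not replicates and a cluster set against the remaining cells is no test, so no p-values are given.

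Eribulin cells were rare in cluster 14 and made up a larger part of cluster 16 than of any other mainly untreated cluster. Of all 1020 cells numbered 14, 9 (0.882%) came from eribulin libraries, and of the 283 cells numbered 16, 32 did (11.3%, 7.86 to 15.6). In clusters 2, 3, 4, 6, 8 and 9 untreated cells made up 98.4% to 99.7%, against 88.7% in cluster 16 and 99.1% in cluster 14. Of these 32 cells, 26 were scATAC and 6 were multiome cells. Their median nucleosome signal was 0.846 in scATAC and 0.617 in the multiome library. The 2 with a called lineage both carried 76-49517, whose 2 untreated multiome cells lay outside cluster 16. Of the cell barcodes of the multiome cells of clusters 14 and 16, 9 also occurred in the eribulin multiome library, which shared 123 cell barcodes with the untreated one. Of those of the scATAC cells, 12 also occurred in the eribulin scATAC library, which shared 215. Between the untreated libraries 1 cell barcode was shared, by a cell of neither cluster.

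Cluster 14 was in large part the product of a single lineage. In the untreated multiome library 247 of its cells had 1 called barcode, and 139 of these (56.3%, 49.8 to 62.6) carried 22-14328. Outside cluster 14 the same barcode was found in 43 of 4525 called cells (0.95%). Counted over all 462 cells of the cluster, with those that had no single call, the 139 cells were 30.1%. The same counts can be given per lineage. Of the 182 called cells of 22-14328, the most frequent lineage of the library, 76.4% lay in cluster 14, whereas 108 of 4590 cells of other lineages did (2.35%, 1.93 to 2.83). The remaining 43 cells of the lineage were spread over 6 clusters. There were 18 in cluster 6, 9 in cluster 3 and 7 in cluster 2. A further 6 lay in cluster 9, 2 in cluster 8 and 1 in cluster 4. Lying mostly in 1 cluster was not particular to this lineage. The leading lineage of cluster 6 had 94 of its 112 called cells there, and that of cluster 9 had 57 of 67. That of cluster 3 had 60 of 80 and that of cluster 8 had 58 of 82. Other lineages were more spread, such as a lineage of 30 called cells with at most 14 in any cluster.

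The other called cells of cluster 14 came from many lineages. They were 108 cells of 76 lineages, of which 59 had 1 cell in the cluster. Besides 22-14328, 2 lineages had at least 5 cells there. Lineage 61-88872 had 7 of its 21 cells in cluster 14 (33.3%, 14.6 to 57.0), with 6 in cluster 6 and 5 in cluster 3. Lineage 71-3610 had 6 of its 11 cells there (54.5%, 23.4 to 83.3), with 3 in cluster 3. Of the 125 lineages with at least 10 called cells in the library, 69 had none in cluster 14, and only 22-14328 and 71-3610 had over 50% of their cells there.

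Cluster 16 was shared by 4 small lineages. Of its 54 called cells, 14 carried 18-67263 (25.9%, 15 to 39.7), 9 carried 71-29939, 7 carried 71-60126 and 5 carried 29-70749. Together these were 35 cells (64.8%, 50.6 to 77.3). Elsewhere the 4 most frequent lineages held 63.2% of the called cells in cluster 14, 40% in cluster 6 and 35.6% in cluster 9. In clusters 2, 3, 4 and 8 they held 15.1% to 27.5%. Over all 141 cells of cluster 16, with or without a call, the 35 cells were 24.8%. The 4 lineages were rare in the library, where they made up 46 of the called cells (0.964%), yet 76.1% (61.2 to 87.4) of those 46 lay in cluster 16. Of the 4726 called cells of other lineages, 19 did (0.402%, 0.242 to 0.627). The 4 were named for having at least 5 called cells in cluster 16, so this contrast is in part set by that choice. The intervals do not cover it. The plot of lineage make-up shows a single dark block in cluster 14 and 4 blocks of more even size in cluster 16.

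**Figure D1:**
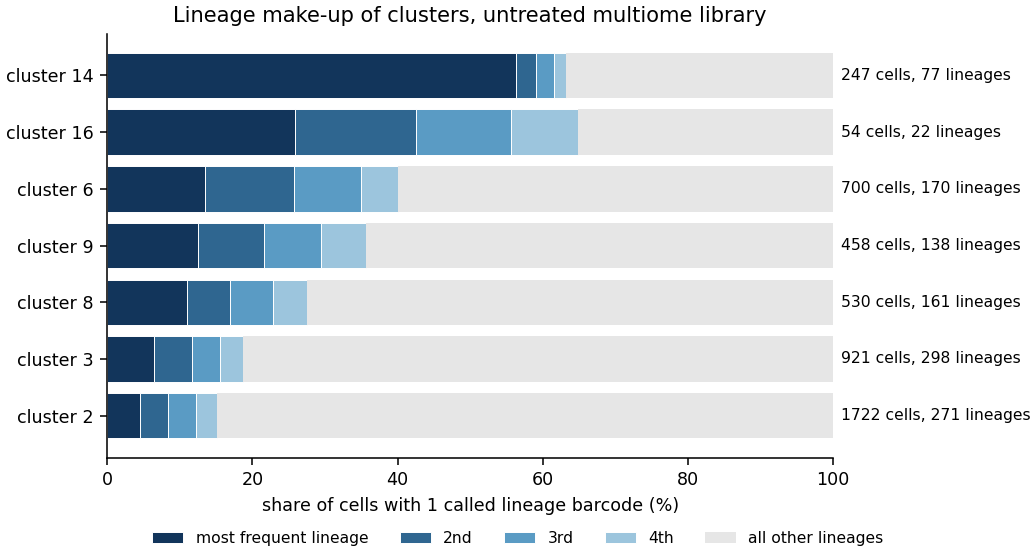
Share of cells with 1 called barcode (x axis, percent) that belong to each of the 4 most frequent lineages of each cluster and to all others, in the untreated multiome library; the lineages differ between clusters. The leading lineage takes 56.3% of cluster 14 and 25.9% of cluster 16, against 4.53% to 13.4% in clusters 6, 9, 8, 3 and 2. The interval of cluster 16 (15 to 39.7) overlaps those of cluster 6 (11 to 16.2) and cluster 9 (9.56 to 15.8).

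Each of the 4 lineages had most of its cells in cluster 16, as the leading lineages of clusters 3, 6, 8 and 9 had in theirs. For 18-67263 it was 14 of 17 cells (82.4%, 56.6 to 96.2), with 1 cell each in clusters 2, 3 and 6. For 71-29939 it was 9 of 15 (60.0%, 32.3 to 83.7), with 2 in cluster 2, 2 in cluster 9, 1 in cluster 6 and 1 in cluster 14. For 71-60126 it was 7 of 8 (87.5%, 47.3 to 99.7), and for 29-70749 it was 5 of 6 (83.3%, 35.9 to 99.6). The intervals of the 4 lineages overlap, and they do not cover the choice of these lineages by their cells in cluster 16. The other 19 called cells of cluster 16 came from 18 lineages, 17 of them with 1 cell in the cluster, and 114 of the 125 lineages with at least 10 cells had none there.

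**Figure D2:**
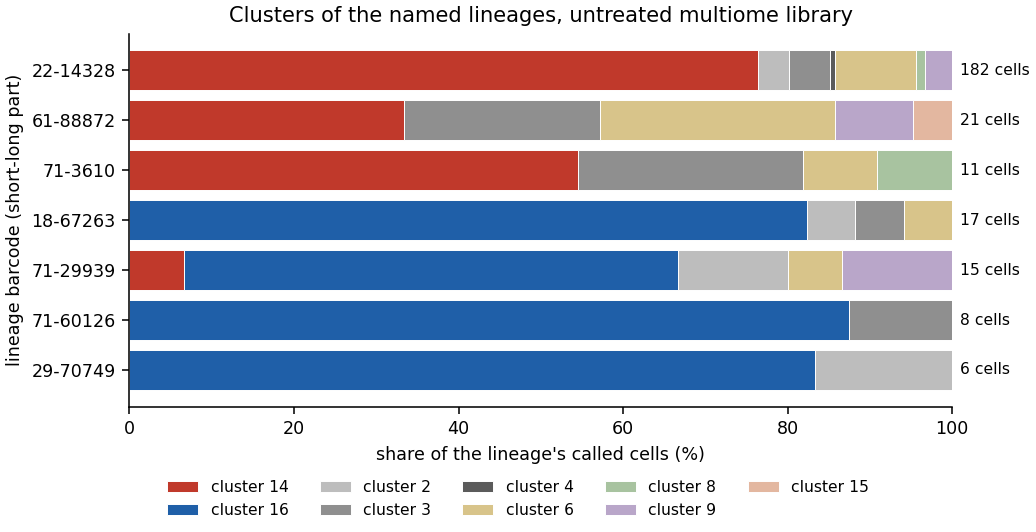
Share of the called cells of each named lineage (rows, with the number of cells at the right) that lie in each cluster (x axis, percent), in the untreated multiome library. The upper 3 rows are the lineages with at least 5 cells in cluster 14 and the lower 4 those with at least 5 in cluster 16; 76.4% of 22-14328 lies in cluster 14, and 60.0% to 87.5% of the lower 4 lie in cluster 16.

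Both clusters were less diverse in lineages than the larger untreated clusters. Pairs of called cells carried the same barcode in 31.8% of cases in cluster 14 and in 11.1% in cluster 16, against 1.25% to 4.90% in clusters 2, 3, 6, 8 and 9. The inverse of this share, an effective number of lineages, was 3.15 in cluster 14 and 9 in cluster 16, and 20.4, 24.9, 36.4, 71.3 and 80.3 in clusters 6, 9, 8, 2 and 3. Numbers of distinct lineages depend on the number of cells, so they were compared in 54 cells, all those called in cluster 16. In 54 called cells cluster 14 would hold 22.1 distinct lineages on average and cluster 16 held 22, against 30.9 in cluster 6, 31.9 in cluster 9, 35.9 in cluster 8, 40.2 in cluster 2 and 43.3 in cluster 3. Thus the clusters held about as many lineages as each other at that number of cells, and differed in how evenly the cells were dealt to them. Without 22-14328 the same-barcode share of cluster 14 was 1.11%, and without its 4 leading lineages that of cluster 16 was 0.585%. The leading lineages were chosen for their frequency in the cluster, so both shares fall by construction.

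The scATAC library could not repeat the lineage result. A single barcode was called in 29 of its 9361 cells, and each of clusters 14 and 16 held 1 of them. The called cell of cluster 14 carried 55-68976, a lineage that had 65 of its 76 multiome cells in cluster 6 and 1 in cluster 14. The called cell of cluster 16 carried 43-39620, whose 2 multiome cells lay in cluster 2. Of the 7 lineages named above for cells of clusters 14 and 16 in the multiome library, 18-67263 was called once in scATAC, in a cell of cluster 2. The other 6 were not called in it, which allows a share of up to 10.3% of called cells each. Whether cluster 14 or 16 of the scATAC library was made up of these lineages is therefore not known. None of the 7 was called in the 1391 called eribulin multiome cells or the 84 called eribulin scATAC cells, which allows up to 0.216% and 3.57%.

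Calling of barcodes differed between the clusters. In the multiome library 53.5% (48.8 to 58.1) of the cells of cluster 14 had a single call, against 49.6% of the cells outside it. In cluster 16 it was 38.3% (30.2 to 46.9), against 50.0% of the cells outside it and 48.2% of those cells weighted to the cut sites of cluster 16. Doublet or multiplet calls, which name no barcode, were made for 18 cells of cluster 14 (3.90%, 2.33 to 6.09), against 9.29% (8.70 to 9.90) of the cells outside it and 10.7% of them at matched cut sites. In cluster 16 they were made for 11 cells (7.80%, 3.96 to 13.5), against 9.04% of the cells outside it and 6.79% of them at matched cut sites.

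Cluster 14 was deeper and cluster 16 shallower than the other cells of the same library as a whole, in both libraries. The median number of cut sites in peaks was 6331 (quartiles 4455 and 9662) in cluster 14 and 5162 (3450 and 7941) in the cells outside it in the multiome library, a ratio of 1.23. In scATAC it was 8439 (5383 and 12329) in cluster 14 and 7391 (4763 and 11341) outside it, a ratio of 1.14. For cluster 16 it was 2774 (2011 and 4360), against 5258.5 (3531 and 8078) outside it in the multiome library, a ratio of 0.528. In scATAC it was 5229.5 (3004 and 9148) in cluster 16 and 7455 (4825 and 11460) outside it, a ratio of 0.701. In the multiome library no other mainly untreated cluster was as shallow as cluster 16. Its median had a 95% interval of 2414 to 3160, and the next lowest median was 4966 in cluster 6 (4791 to 5147). The depth of cluster 14 in both libraries, and that of cluster 16 in scATAC, was not found in 1 cluster alone. Cluster 4 had a median of 6671.5 cut sites in the multiome library (92 cells) and 8204 in scATAC, with 95% intervals that overlap those of cluster 14, and cluster 2 had 4392.5 in scATAC (126 cells), with an interval that overlaps that of cluster 16. The quartile ranges overlapped for cluster 14 in both libraries and for cluster 16 in both. Of the multiome cells of cluster 16, 85.8% (78.9 to 91.1) lay below the median of the cells outside it, and of the scATAC cells 63.6% (53.9 to 72.6).

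The share of each cluster therefore moved with the depth of the cell, more steadily in the multiome library than in scATAC. With the multiome library divided by cut sites into 10 depth groups of equal size, cluster 16 held 5.84% (4.44 to 7.52) of the shallowest group and 0.209% (0.0253 to 0.751) of the deepest, whereas cluster 14 held 1.56% (0.878 to 2.57) and 7.92% (6.29 to 9.82). In scATAC cluster 16 held 3.20% (2.17 to 4.54) of the shallowest and 0.534% (0.174 to 1.24) of the deepest group, and cluster 14 held 2.77% (1.82 to 4.04) and 7.26% (5.69 to 9.12). Between these ends the scATAC shares showed no steady trend. Cluster 14 held 4.91% to 7.91% of groups 2 to 10, and cluster 16 held 0.748% of group 5 and 1.60% of group 7. In the multiome library 56 of the 141 cells of cluster 16 lay in the shallowest group. What part depth has in the assignment of cells to both clusters was not tested.

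**Figure D3:**
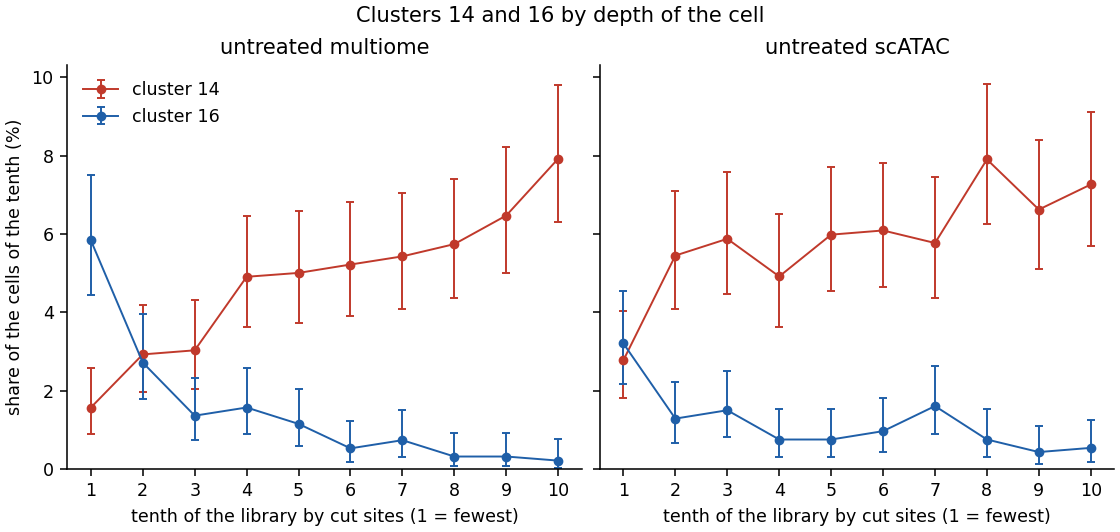
Share of cells in cluster 14 and in cluster 16 (y axis, percent, with exact 95% intervals) in each of 10 depth groups of an untreated library by cut sites in peaks (x axis, 1 the shallowest), for the multiome library (left) and scATAC (right). Cluster 14 takes 1.56% of the shallowest and 7.92% of the deepest multiome group, and cluster 16 takes 5.84% and 0.209%.

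Within cluster 14 the cells of the leading lineage were shallower than those of other lineages. The 139 cells of 22-14328 had a median of 5728 cut sites (quartiles 4409 and 8952), against 8085.5 (4992 and 12598) in the 108 cells of other lineages. Cells called negative had a median of 5881.5, and the 18 called doublet or multiplet had 13131.5. The leading lineage made up 55 of 85 called cells (64.7%, 53.6 to 74.8) below the library's median of 5217 cut sites and 84 of 162 (51.9%, 43.9 to 59.8) at or above it, with overlapping intervals. A shallower leading lineage was also found in cluster 3, where its median was 4185.5 against 5538 for the other lineages, a ratio of 0.756 beside 0.708 in cluster 14. In cluster 16 the 14 cells of 18-67263 had a median of 2050.5 against 3175.5 for the other lineages, a ratio of 0.646. In clusters 2, 6, 8 and 9 the ratio was 0.881 to 1.00. Whether cells that hold 2 barcodes but have 1 call are among the deep cells of other lineages was not tested.

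In cluster 16 the 35 cells of the 4 leading lineages had a median of 2592 cut sites and the 19 cells of other lineages 3936 (95% intervals of these medians 2046 to 3282 and 2566 to 5877, which overlap). By lineage the median was 2050.5 for 18-67263 (range 1138 to 11720), 2592 for 71-29939 (1237 to 6418), 3160 for 29-70749 (2011 to 4982) and 3968 for 71-60126 (1373 to 8220), and these ranges overlap. The 11 cells of the same lineages outside cluster 16 had a median of 5064 cut sites (range 1636 to 17668).

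For the leading lineage of cluster 14 depth hardly differed with the cluster. The 139 cells inside it had a median of 5728 cut sites and the 43 outside it 5957. Their median nucleosome signal was 0.873 inside and 0.879 outside, and their gene activity per cut site was 0.949 inside and 0.964 outside.

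Before matching for depth, the nucleosome signal of cluster 16 was lower than that of the other cells in both libraries. That of cluster 14 was lower in the multiome library, with no difference beyond counting error in scATAC. In the multiome library the median was 0.858 (quartiles 0.793 and 0.928) in cluster 16 and 0.908 (0.817 and 1.01) outside it, and in scATAC 1.03 (0.970 and 1.1) in cluster 16 and 1.07 (0.985 and 1.16) outside it. The differences of medians were -0.0497 and -0.0383. The signal rose with depth among untreated multiome cells of neither cluster (Spearman rho 0.19 over 8980 cells), and against cells weighted to the cut sites of cluster 16 its multiome difference was -0.0147 and its scATAC difference -0.0341.

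For cluster 14 the median nucleosome signal was 0.873 (0.799 and 0.944) in multiome cells and 0.911 (0.818 and 1.02) in the cells outside it, a difference of -0.0381, and -0.0491 at matched cut sites. In scATAC it was 1.08 (1.01 and 1.15) in cluster 14 and 1.07 (0.983 and 1.16) outside it, a difference of 0.00777, and the 95% interval of the cluster 14 median, 1.06 to 1.08, holds the median of the other cells. All these differences were smaller than the quartile ranges of the cells. Within multiome cluster 14 the leading lineage had a median of 0.873 and the other lineages 0.864, so the lower signal was found in both. Over the 323 cells of cluster 14 that were not called 22-14328, the difference from the cells outside it was also -0.0381. Neither cluster stood at the end of the order of clusters: in the multiome library the medians of clusters 6, 3, 9, 8, 4 and 2 were 0.846, 0.864, 0.866, 0.906, 0.931 and 0.983, and in scATAC those of clusters 9, 8, 6, 3 and 4 were 1.02, 1.03, 1.04, 1.05 and 1.14.

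Gene activity followed the depth of the cells. The median gene activity total was 6099.5 in cluster 14 and 5095 outside it in the multiome library, and 8050 against 7213.5 in scATAC. It was 2674 in cluster 16 and 5173.5 outside it in the multiome library, and 5322.5 against 7280 in scATAC. Genes with any activity numbered 4266 per cell in cluster 14 against 3736 outside it, and 2242 in cluster 16 against 3787 outside it, in the multiome library. In scATAC they numbered 5218 in cluster 14 against 4798.5 outside it, and 3842 in cluster 16 against 4835.

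Per cut site, cluster 14 had slightly less gene activity than the other cells as a whole, but not less than most single clusters in scATAC. The median was 0.952 (quartiles 0.922 and 0.983) in cluster 14 and 0.978 (0.937 and 1.02) outside it in the multiome library, a ratio of 0.973. In scATAC it was 0.962 (0.931 and 0.995) in cluster 14 and 0.974 (0.937 and 1.02) outside it, a ratio of 0.988. In the multiome library 72.3% (68.0 to 76.3) of the cells of cluster 14 lay below the median of the cells outside it, and in scATAC 59.6% (55.3 to 63.7). For cluster 16 the ratio was 1.01 in the multiome library and 1.00 in scATAC, and against cells of matched cut sites 1.02 and 1.01. In the multiome library the medians of clusters 6, 9, 3, 8, 4 and 2 were 0.942, 0.949, 0.963, 0.966, 0.988 and 1.02, so cluster 14 lay between clusters 9 and 3. In scATAC the medians of clusters 6, 9, 8, 3, 4 and 2 were 0.953, 0.956, 0.959, 0.959, 1.01 and 1.01, so cluster 14 lay above 4 of these clusters. The enrichment of cuts at transcription start sites had ratios of 1.00 to 1.02 for both clusters in both libraries.

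**Figure D4:**
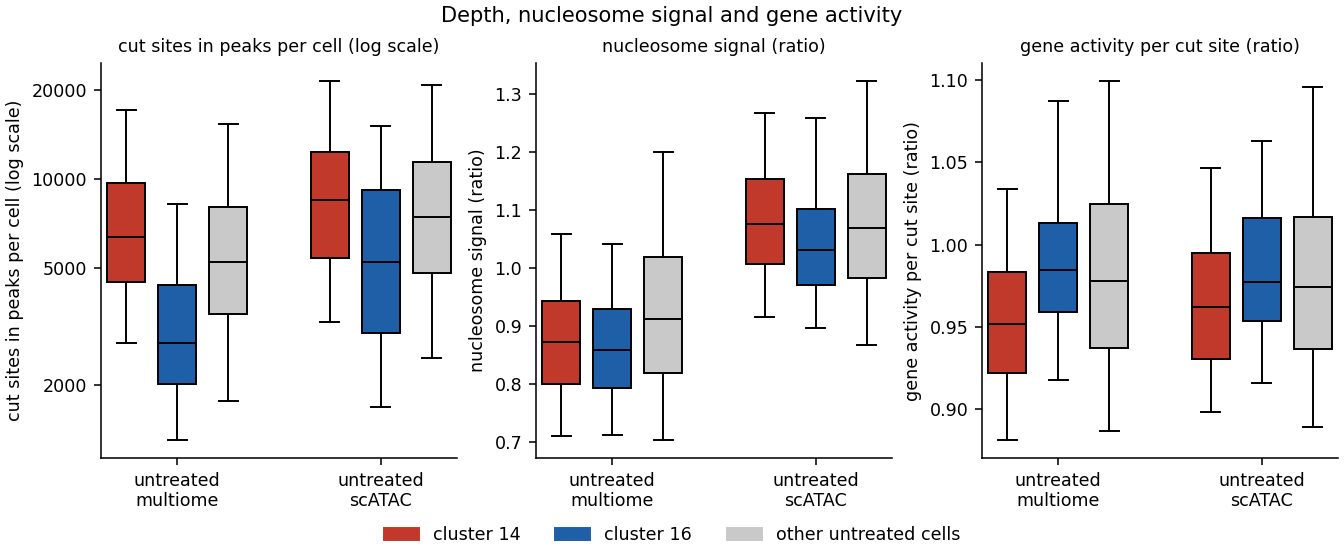
Cut sites in peaks per cell on a log axis (left), nucleosome signal (middle) and gene activity per cut site (right) for cluster 14, cluster 16 and untreated cells of neither cluster, in the multiome and the scATAC library; boxes span the quartiles, lines are medians and whiskers reach the 5th and 95th percentiles. In cut sites the median of cluster 14 lies above and that of cluster 16 below the median of the other cells in both libraries, and the boxes overlap in every panel.

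On the deposited UMAP, which rests on the same peak data as the clusters and so is no separate evidence for them, cells of cluster 16 lay mostly beside each other. Those of cluster 14 lay mostly beside cells of other clusters in the multiome library, and less so in scATAC. The median position of cluster 16 was -4.43 and -3.04 on axes 1 and 2 in the multiome library and -4.67 and -3.43 in scATAC, at distances of 3.32 and 3.86 from the nearest median of a cluster with at least 500 cells of the library, cluster 8 in both. In scATAC the median of the smaller cluster 2 (126 cells), at -2.20 and -2.48, lay nearer than that of cluster 8. Cells of cluster 16 lay at a median distance of 0.669 and 0.348 from their own median position. The position differed little between the libraries, by 0.452, against 0.617 to 0.971 for clusters 3, 6, 8 and 9. Among the 30 nearest cells of the same library, 74.2% belonged to cluster 16 in the multiome library and 76.8% in scATAC, where it made up 1.47% and 1.18% of all cells.

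Cluster 14 lay among the larger clusters, and its cells were at a median distance of 1.56 from their own median position in the multiome library, against 0.855 to 2.85 in clusters 2, 3, 4, 6, 8 and 9. In scATAC this distance was 1.36, against 1.50 to 2.75 in those clusters. Its median position was 0.911 and -3.91 in the multiome library, 1.06 from that of cluster 3, and 3.32 and -2.84 in scATAC, 1.2 from that of cluster 6. These positions were 2.64 apart. Of the 30 nearest cells 26.9% belonged to cluster 14 in the multiome library, 24.9% to cluster 3, 14.1% to cluster 2 and 11.2% to cluster 6. In scATAC 47.7% belonged to cluster 14, 14.8% to cluster 3, 11.4% to cluster 8 and 10.6% to cluster 4. Cluster 14 made up 4.82% of all multiome and 5.86% of all scATAC cells. The median share of neighbours in cluster 14 per cell of that cluster was 20% in the multiome library and 53.3% in scATAC. Cells of 22-14328 in cluster 14 had on average 32.5% of their neighbours in the cluster and cells of other lineages 25.8%. The 43 cells of 22-14328 outside cluster 14 had 7.05% on average and cells of other lineages outside it 3.8%, with a median of 0% in both.

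**Figure D5:**
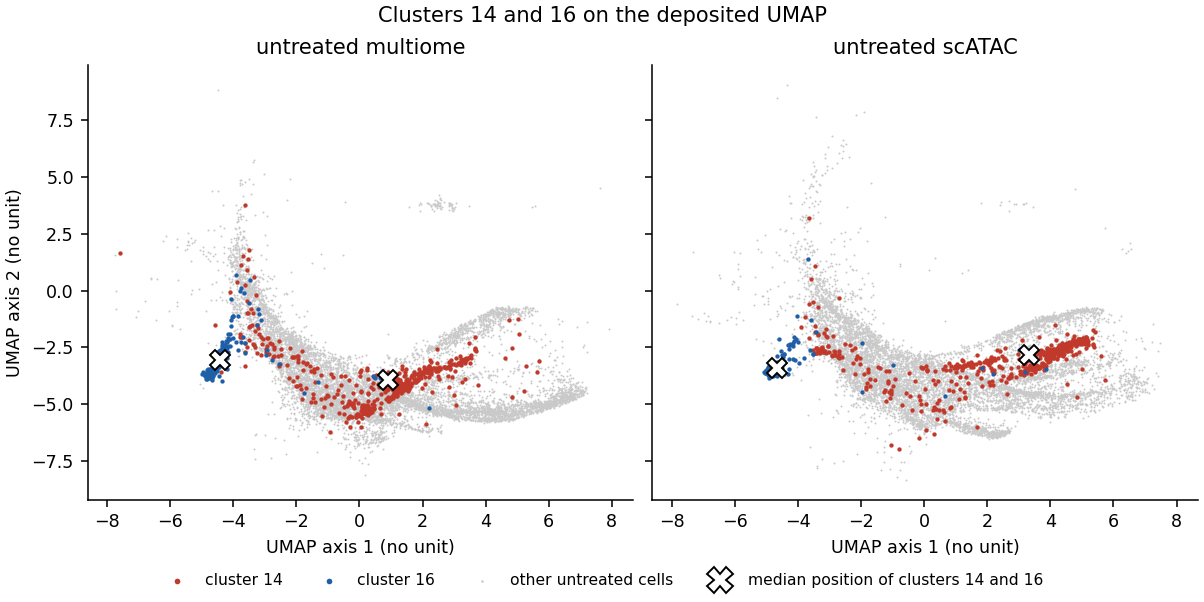
Untreated cells on the deposited UMAP (both axes without unit) in the multiome library (left) and scATAC (right), with cells of cluster 14, of cluster 16 and of neither; crosses mark the median positions. The median of cluster 16 lies at -4.43 and -4.67 on axis 1, and that of cluster 14 at 0.911 and 3.32, among the other cells.

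Axis 1 of the map went with depth, in the reverse direction in cluster 16, where the relation was weak in scATAC (110 cells). No intervals were computed for these correlations. Across cells, the Spearman correlation of cut sites with axis 1 was 0.71 in cluster 14 and -0.49 in cluster 16, against 0.67 in multiome cells of neither cluster. In scATAC it was 0.72, -0.19 and 0.68 in the same order. Cells of a library share its depth and the map is built on the same cuts, so these are descriptions. In the multiome library 583 cells lay in the rectangle that spans the 5th to 95th percentiles of cluster 16 on both axes, and 116 of them (19.9%) belonged to it. The 116 cells had a median of 2568 cut sites and the other 467 cells in that rectangle 2857. In scATAC 87 of the 1631 cells in the rectangle (5.33%, 4.29 to 6.54) belonged to cluster 16 and 1544 did not.

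Nearest neighbours showed no separation of the 4 lineages of cluster 16 beyond counting error, but the cells are few and the interval is wide. For 9 of their 35 cells (25.7%, 12.5 to 43.3) the nearest of the other 34 carried the same barcode, where 26.6% of all pairs among the 35 cells do. Their median positions on axes 1 and 2 were -4.43 and -2.72 for 18-67263 and -4.28 and -2.56 for 71-29939. They were -4.63 and -3.61 for 71-60126 and -3.23 and -2.28 for 29-70749. Whether the lineages lie apart within the cluster was not tested.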

How the data were processed

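The deposited tables used give 43782 cells with their cluster and barcode call, positions on the UMAP, and 10000000 designed barcodes. Per the series' design text, the authors made peak counts with cellranger-atac 1.2.0 (scATAC) and cellranger-arc 1.0.0 (multiome) on mm10 and filtered and clustered cells with Signac 1.1.1. Deposited counts are whole numbers of cut sites, peaks, gene activity and genes per cell, not normalized. The deposited nucleosome signal and TSS enrichment are each a ratio per cell, per the file headers, and UMAP positions are deposited as a score on each axis. The labels do not describe the barcode calling.

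Cells were assigned to libraries by the table's library column and the sample titles. Barcode names were read as the numbers of their short and long parts; all 484 barcodes of the untreated multiome library were in the list. Lineage values use cells with 1 called barcode, which leaves out negative, doublet, multiplet and unmapped cells. Lineages named have at least 5 called cells in a cluster, or were called in its scATAC cells. The clusters, lineages and measures were chosen with earlier results of these data known. Matched depth means other cells weighted to the cluster's shares over 10 depth groups of the library; numbers of distinct lineages in 54 cells are exact expectations. These calculations were tested on simulated data. Intervals of medians are binomial intervals of order statistics. A count of 0 was given the limit of 3 counts. No test was made: each group is 1 library. Alternatives covered depth, doublets, comparison cells, means, neighbours and shared cell barcodes. Calculations used scipy 1.17.1, numpy 2.4.6 and pandas 2.3.3 in Python 3.11.15, with plots by matplotlib 3.10.9.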

Additional observations from a re-analysis of the deposited data

Results flagged for a closer look

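The difference in nucleosome signal between cluster 14 and the other untreated cells had a different sign in each untreated library. The difference of medians, cluster 14 minus the cells outside it, was -0.0381 in the multiome library and 0.00777 in scATAC. The scATAC value lies within counting error, since 46.8% (42.6 to 51.1) of its cluster 14 cells lay below the median of the cells outside it, so an opposite direction is not shown there. The difference between the libraries was not tested, and with 1 library per protocol the protocol and the culture cannot be told apart.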

How the results depend on the processing

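Of 92 values for 28 results under another setting, 80 stayed within the counting interval of the reported value. None of the ratios and differences changed direction. Shares were not checked for a change of direction against the cells outside the cluster. The 12 values that moved beyond their interval follow. With 100 neighbours in place of 30, the share of neighbours in the same cluster was 22.1% (multiome) and 40.4% (scATAC) for cluster 14, and 63.7% and 65.2% for cluster 16. Among cells between the 10th and 90th percentile of cut sites, cluster 16 held 1.08% of the multiome library. Among cells at or above the library's median of cut sites, 55% of the 20 multiome cells of cluster 16 had a single call. The call rate outside cluster 16 was not computed for that setting. In the same setting 100% of the called cells of 18-67263 (2 of 2) lay in cluster 16, and the scATAC call rate was 0% in cluster 14 and 0% in cluster 16. Against cells of matched depth, the multiome nucleosome signal of cluster 16 differed by -0.0147 and its gene activity per cut site had a ratio of 1.02. With means, the scATAC ratio of gene activity per cut site for cluster 14 was 0.983. The cause of these changes was not tested. Leaving out cells whose cell barcode another library also holds, an alternative chosen after seeing the data, moved none of the 18 values computed for it beyond its interval. Doublet and multiplet cells could not be added to the lineage shares, since their calls name no barcode, and alternatives that need called cells were not run for scATAC, with 1 called cell in each cluster. No paired analysis was possible because each group is 1 library.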
